A study of Arabidopsis thaliana with 15 samples.

Results

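Seedling shoots of Arabidopsis thaliana that carried a changed form of the ribosomal protein eS6A, written eS6A-Δ6SA, were compared with shoots that carried eS6A-HA, the protein without that change, named with the usual abbreviation of an epitope tag. The labels do not say whether eS6A-Δ6SA carries the tag. All columns of these 2 genotypes entered the comparison, 3 libraries each, and 16335 of 21777 listed genes were tested, those with a mean of at least 10 normalised counts over the study's 15 libraries once spike-in rows were set aside. A normalised count is the number of reads on a gene after division by the library's size factor, as the authors deposited it. Both transgenes sit in the rps6a rps6b double mutant background, so both endogenous eS6 genes carry mutant alleles in either genotype. The other genotypes of the study were the single mutants rps6a and rps6b and wild type (WT), with 3 libraries each. Their levels are set beside the comparison. Their libraries also entered the filter on the mean and the estimate of spread behind the limma p-values. Double mutants without a transgene were not analysed here. Seedlings were 12 days old, grown on half-strength MS medium in 16 h of light and 8 h of dark. Total RNA was depleted of ribosomal RNA, mixed with ERCC spike-in RNA, a set of synthetic transcripts added in fixed amounts, and sequenced as read pairs of 75 bases. The labels do not say which residues differ in eS6A-Δ6SA, which promoter drives the transgenes, or whether each genotype is 1 transgenic line, and a difference between the genotypes cannot be told apart from a difference between 2 lines. Nor do they say that the libraries of a genotype came from separate cultures, so p-values measure the spread between these libraries, which may be technical.

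eS6 is a protein of the small ribosomal subunit. In animals, fungi and plants its carboxy-terminal tail is phosphorylated on serines by S6 kinase, which is itself activated by the TOR kinase when nutrients, light and hormones favour growth, and eS6 phosphorylation is therefore widely used as a readout of TOR activity. In Arabidopsis eS6 is encoded by a pair of genes, RPS6A and RPS6B, and single mutants in either grow slowly with pointed leaves. The known aim of this study was to ask what the plant does with an eS6 that cannot be phosphorylated.

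The tails of both genes are shown because this is the stretch that holds the kinase sites. The lines give the last coding bases with the stop codon in the reference, with serine codons in capitals, from TAIR10.1 (RPS6A at chr4:15346306-15346398 and RPS6B at chr5:3258734-3258823, both on the minus strand).
RPS6A: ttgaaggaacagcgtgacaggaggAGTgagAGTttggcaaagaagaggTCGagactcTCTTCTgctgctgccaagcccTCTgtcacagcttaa
RPS6B: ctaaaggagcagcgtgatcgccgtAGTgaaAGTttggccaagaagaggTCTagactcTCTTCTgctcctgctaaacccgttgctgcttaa
Of the 15 serine codons in the 251 codons of RPS6A, 6 lie in these last 31, and RPS6B has 5 of its 15 in its last 30. With codon 27 of the RPS6A stretch left out, a serine codon with no partner in RPS6B, 73 of 90 bases are identical (81.11%) and the other 5 serine codons stand at the same places.

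RPS6A, the gene whose product the transgenes supply, had 1112, 1385 and 1220 normalised counts in the eS6A-Δ6SA libraries, against 1765, 1879 and 1836 in the eS6A-HA libraries. Every eS6A-Δ6SA library lay below every eS6A-HA library, with a log2 fold change of -0.56 (SE 0.11, adjusted p = 0.00293). Log2 fold changes are those of eS6A-Δ6SA over eS6A-HA from limma, on log2(normalised count + 1), with p-values adjusted over all genes tested, and a gene is said to rise or fall where the adjusted p is under 0.05. Libraries are named by genotype and replicate, as in eS6A-Δ6SA 2. Both genotypes lay above the WT mean of 952 ± 120 (SD, n = 3) and far above the rps6a mean of 69.8 ± 13.7. The rps6b mean of 1724 ± 125 was also above WT, and lay between the libraries of eS6A-Δ6SA and those of eS6A-HA. Reads from the transgene and from what is left of the endogenous gene are counted together. The form of eS6A and its RNA level thus changed together, and their parts in any result below cannot be told apart. RPS6B, the second eS6 gene, was low in both genotypes, at 67.5, 58.4 and 67 in eS6A-Δ6SA and 72, 95.9 and 92.1 in eS6A-HA. Its mean was 932 ± 41.3 in WT, 1222 ± 29.9 in rps6a and 266 ± 12.2 in rps6b, the last above both transgenic genotypes. It passed the test as lower in eS6A-Δ6SA by a log2 fold change of -0.42 (SE 0.10, adjusted p = 0.0141), but the call was lost when eS6A-Δ6SA 2, eS6A-HA 2 or eS6A-HA 3 was left out, with adjusted p up to 0.129, and neither edgeR (0.116) nor DESeq2 (0.216) made it, nor limma on the 6 libraries alone. Neither call held under scaling to the spike-ins (adjusted p = 0.1 and 0.4). Nor did either hold in limma with no trend or robust moderation of the variance (adjusted p = 0.0791 and 0.0978).

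**Figure D1:**
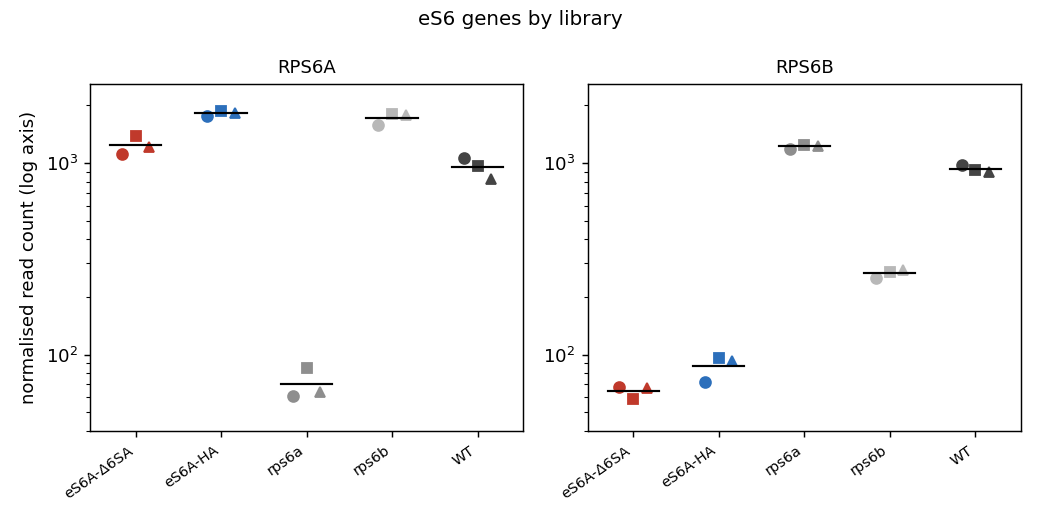
Normalised read counts (log axis) of RPS6A and RPS6B in each library of the 5 genotypes. Points are libraries (circle, square and triangle for replicates 1 to 3) and lines are means: RPS6A lies between 1112 and 1385 in eS6A-Δ6SA and between 1765 and 1879 in eS6A-HA, and RPS6B is under 100 in both.

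The 6 libraries held 7215397 to 9167608 reads on genes, so the comparison is of libraries of like depth. Genes of green shoot (4 RBCS genes and RCA) summed to 113564 to 132992 in eS6A-Δ6SA and 114283 to 120031 in eS6A-HA. Root markers (7 of 9 listed, no member tested) summed to 5.73 to 10.6 in eS6A-Δ6SA and 6.74 to 8.23 in eS6A-HA, and flower markers (3 of 4 listed, no member tested) to 5.28 to 8.02 in eS6A-Δ6SA and 3.64 to 6.17 in eS6A-HA. None of the 5 green shoot, 3 guard cell or 2 phloem markers passed in limma, edgeR or DESeq2, and 3, 2 and 1 of them had an unadjusted p under 0.05. Seed markers stood apart: CRA1, CRU3, OLEO1 and SESA1, which encode storage and oil body proteins, summed to 829, 425 and 694 in eS6A-Δ6SA, against 202, 167 and 149 in eS6A-HA. The rps6a mean of that sum was 519 ± 148, the rps6b mean 271 ± 139 and the WT mean 170 ± 11.3. Their part in the results below was not tested.

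Of the 16335 genes, 429 differed at an adjusted p under 0.05 (2.63%), 201 higher in eS6A-Δ6SA (1.23%) and 228 lower (1.4%). The median log2 fold change of all genes was -0.00. The genes that rose did so by more, with a median size of 0.79 on the log2 scale, than those that fell, at 0.48. They also had lower counts, with a median of 82.9, against 333 for those that fell. The part of count level in these sizes was not tested. Of the 429 genes, 83 changed by at least 1 on the log2 scale, 59 up and 24 down. In bulk shoots, fewer cells of a type and less RNA per cell cannot be told apart. Groups that did not overlap were common in themselves, with 1588 genes (9.72%) above and 1771 (10.8%) below, and 422 of the 429 were among them. The count fell to 255 without eS6A-Δ6SA 3, 279 without eS6A-HA 1 and 241 without eS6A-HA 3, and 146 genes, 74 higher and 72 lower, were called whichever single library was left out. Spike-in reads came to 5.04% ± 0.548 of gene reads in eS6A-Δ6SA and 5.27% ± 0.203 in eS6A-HA (SD, n = 3 each). The libraries overlapped, at 4.59% to 5.65% in eS6A-Δ6SA and 5.15% to 5.51% in eS6A-HA (exact two-sided permutation p = 0.5). Scaled to the spike-ins, which shifts the median gene up by 0.21 in eS6A-Δ6SA, 832 genes passed, 793 of them higher. Directions are therefore given below relative to the median gene. Under that scaling the medians of the clock, jasmonate, glucosinolate, TOR, ribosome biogenesis, initiation factor, mitochondrial stress and cold lists given below turn positive.

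**Figure D2:**
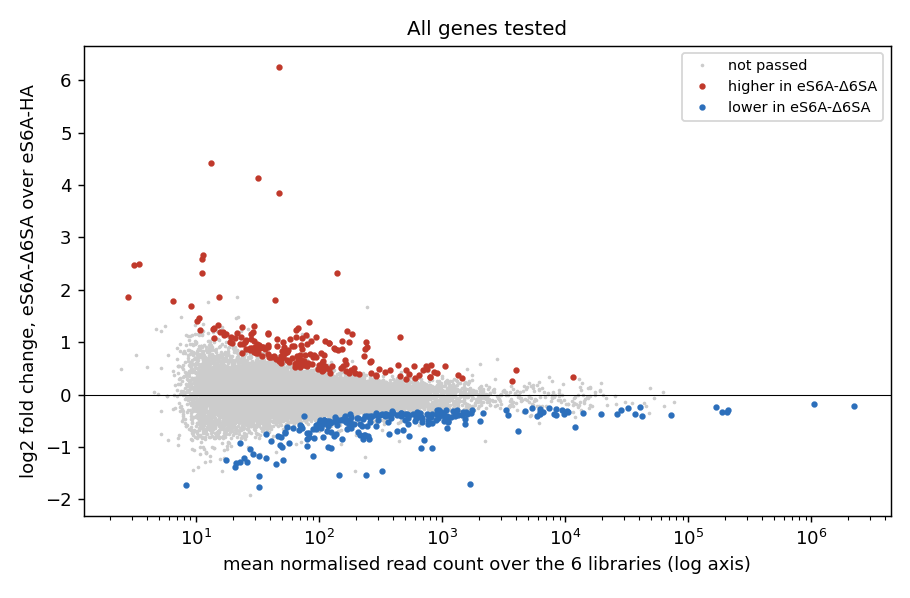
Log2 fold change (eS6A-Δ6SA over eS6A-HA) of each of the 16335 genes tested against its mean normalised count over the 6 libraries (log axis). Red points are the 201 genes higher and blue points the 228 genes lower at an adjusted p under 0.05; the largest rises lie at low counts and the blue points reach the most abundant transcripts.

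For the genes that differed, the levels in the other genotypes can be read as a description. WT lay between the means of both transgenic genotypes for 156 of the 201 genes that rose and for 174 of the 228 that fell. Its mean was nearer to eS6A-HA than to eS6A-Δ6SA for 149 of the 201 and for 129 of the 228. The single mutants were placed the other way. The rps6a mean was nearer to eS6A-Δ6SA for 184 of the 201 and 201 of the 228, and the rps6b mean for 173 and 156. The same counts were not taken over all genes tested. Whether the genes that differed stand out from the rest in this was therefore not tested.

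Of the phosphate starvation genes 12 fell in eS6A-Δ6SA, under the deposited scaling. Many of these genes are switched on by the transcription factor PHR1 when phosphate is short. Among them are genes that take up phosphate, replace phospholipids and release phosphate from other molecules. The list also holds genes that hold back this response or the uptake, SPX1, SPX2 and PHO2 among them. Of 27 genes in the list 23 were tested: 12 fell (52.2%, against 1.4% of all genes), none rose and 11 did not pass, and 21 of 23 had a negative log2 fold change, with a median of -0.91. Summed over the list, the levels were 4980, 3103 and 3422 normalised counts in eS6A-Δ6SA, against 6790, 5250 and 7294 in eS6A-HA, so the groups did not overlap. The WT mean was 4536 ± 284, within the range of the eS6A-Δ6SA libraries. The means of rps6a and rps6b were 4221 ± 243 and 3310 ± 198. Every eS6A-HA library thus lay above the means of all other genotypes.

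Among the regulators, SPX1 and SPX2 encode SPX domain proteins that sense inositol phosphates and hold back PHR1. SPX1 had 211, 69.9 and 107 counts in eS6A-Δ6SA, against 387, 227 and 454 in eS6A-HA (log2 fold change -1.54, SE 0.35, adjusted p = 0.0444). SPX2 had 59.1, 55 and 55.7 in eS6A-Δ6SA, against 101, 92.2 and 116 in eS6A-HA (-0.85, SE 0.16, adjusted p = 0.00155). In neither did the groups overlap. PHR1 itself, given for its role, did not pass, with 235, 265 and 284 in eS6A-Δ6SA and 251, 290 and 261 in eS6A-HA.

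Genes of lipid replacement fell too. SQD1 and SQD2, which make sulfolipid in place of phospholipid, both had a log2 fold change of -1.02 (SE 0.19, adjusted p = 0.0117). SQD1 stood at 778, 410 and 492 in eS6A-Δ6SA, against 1113, 936 and 1265 in eS6A-HA. MGD2 and MGD3, galactolipid synthases, fell by 1.25 and 1.77 on the log2 scale, MGD3 with 23.2, 6.87 and 14.4 in eS6A-Δ6SA, against 46.3, 34 and 69.7 in eS6A-HA. GDPD1, a glycerophosphodiester phosphodiesterase that breaks down deacylated phospholipid, had 117, 47 and 67 in eS6A-Δ6SA, against 235, 150 and 262 in eS6A-HA (-1.53, SE 0.32, adjusted p = 0.0232). It overlaps AT3G02030 on the opposite strand, and whether strand was used in counting is not given in the sources used here. PPCK1, the kinase of phosphoenolpyruvate carboxylase, had the smallest adjusted p of the list, with 192, 136 and 161 in eS6A-Δ6SA, against 341, 218 and 327 in eS6A-HA (-0.84, SE 0.14, adjusted p = 0.000626), and it too overlaps a gene on the other strand, AT1G08645. The remaining calls, named after their values were seen, were IPS1, a non-coding RNA that binds a microRNA, PHO1;H1, a phosphate exporter homologue, PHF1, which lets phosphate transporters leave the endoplasmic reticulum, and PHO2, a ubiquitin-conjugating enzyme that limits those transporters.

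The libraries varied together over these genes. In all 12 called genes eS6A-Δ6SA 1 was the highest of its group, and in 11 of 12 eS6A-HA 2 was the lowest of its group, so the gap between the genotypes is narrowest between those libraries. The number called fell to 6 without eS6A-Δ6SA 2, 4 without eS6A-Δ6SA 3, 6 without eS6A-HA 1 and 5 without eS6A-HA 3, and was 15 without eS6A-Δ6SA 1. PPCK1, SPX2 and MGD3 stayed called whichever library was left out. SPX1 and MGD2 were lost without eS6A-Δ6SA 2, eS6A-Δ6SA 3, eS6A-HA 1 or eS6A-HA 3 (adjusted p up to 0.142 and 0.0637), GDPD1 without eS6A-Δ6SA 3, eS6A-HA 1 or eS6A-HA 3 (up to 0.0982), and SQD1 and SQD2 without eS6A-Δ6SA 3 (0.0584 and 0.0554). With spike-in scaling 7 members were called.

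**Figure D3:**
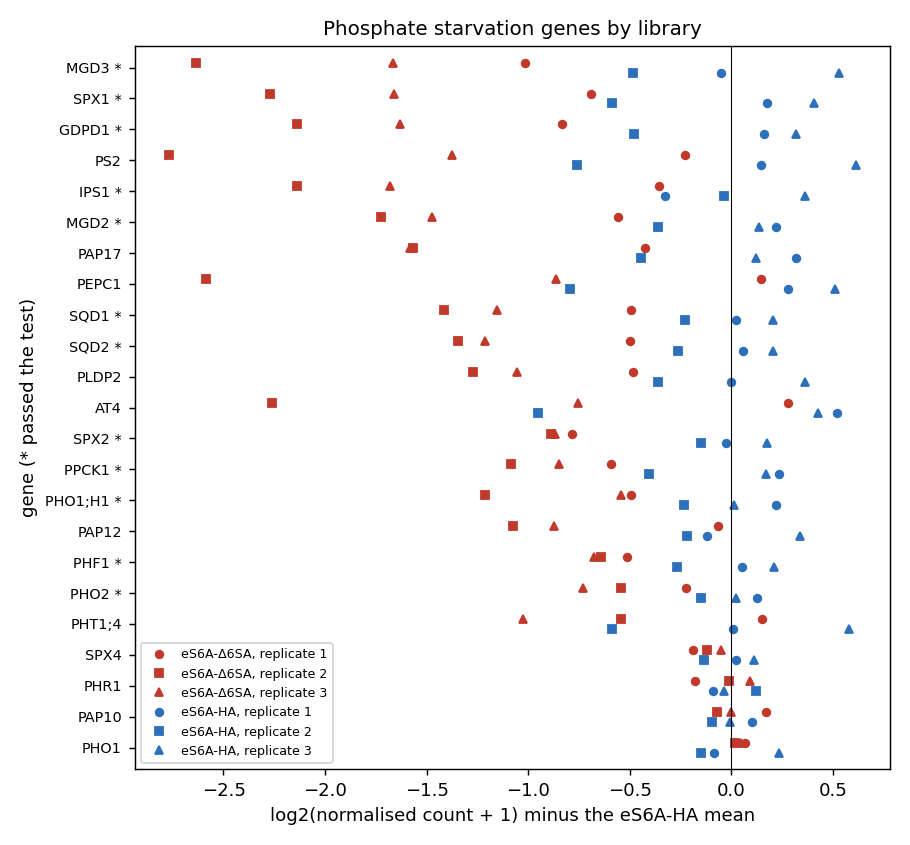
Each of the 23 tested phosphate starvation genes in the 3 eS6A-Δ6SA (red) and the 3 eS6A-HA (blue) libraries, as log2(normalised count + 1) minus the eS6A-HA mean of the gene, with a star on the 12 genes that passed. The eS6A-Δ6SA points lie left of 0 for most genes, replicate 2 (squares) usually farthest and replicate 1 (circles) nearest.

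PHR1 is known to bind a site called P1BS, written GNATATNC. In the 250 bases before the annotated start of each gene, read on both strands, 6 of the 23 phosphate genes held a match, 3 of the 12 called ones among them, against 5.33% of all 16178 windows.

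Several genes of mitosis rose in eS6A-Δ6SA. Of 27 listed genes of the cell cycle and DNA replication, all tested, 7 rose (25.9%, against 1.23% of all genes), none fell and 20 did not pass. The median log2 fold change was 0.35 and 25 of 27 were positive. CDC20.1 and CDC20.2, activators of the anaphase-promoting complex, are adjacent near-identical copies on chromosome 4, so their reads may be split between them. CDC20.1 had 84.4, 119 and 86.6 counts in eS6A-Δ6SA, against 35, 43.7 and 39.3 in eS6A-HA (1.26, SE 0.15, adjusted p = 1.53e-06), and CDC20.2 had 30.6, 50.4 and 40.2 in eS6A-Δ6SA, against 17.5, 18.2 and 21.3 in eS6A-HA (1.03, SE 0.22, adjusted p = 0.00454). Each lowest eS6A-Δ6SA library was above the highest eS6A-HA library. In all 7 called genes eS6A-Δ6SA 1 was the lowest of its group, and in 6 of 7 eS6A-Δ6SA 2 was the highest, the reverse of the order of these libraries in the called phosphate genes.

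Of the listed B-type cyclins and mitotic kinases, which drive entry into mitosis, CYCB1;2, CYCB2;4 and CDKB2;1 rose. CYCB1;2, a mitotic cyclin, had 85.5, 132 and 105 in eS6A-Δ6SA, against 49.4, 59.5 and 52.8 in eS6A-HA (0.96, SE 0.15, adjusted p = 0.000102). CDKB2;1, a plant-specific mitotic kinase, had 69.7, 87.1 and 90.7 in eS6A-Δ6SA, against 40.1, 47.3 and 40.4 in eS6A-HA (0.93, SE 0.15, adjusted p = 0.000102), and overlaps AT1G76530 on the opposite strand. The other called members, named after their values were seen, were CYCB2;4, the cytokinesis syntaxin KNOLLE (SYP111) and the Aurora kinase AUR1, the last pair of which overlap a gene on the opposite strand. The 20 members that did not pass were other cyclins and mitotic kinases (CYCB1;3, CYCB1;4, CYCB2;1, CYCB2;2, CYCB2;3, CYCA1;1, CDKB1;1, CDKB1;2 and CDKB2;2) and genes of DNA replication (MCM2 to MCM7, parts of the replicative helicase, PCNA1, PCNA2, RNR1, RNR2A and CDT1A). No difference between these kinds of genes was tested. The count of called members was 3 without eS6A-Δ6SA 2, 4 without eS6A-Δ6SA 3 and 5 to 8 without any of the other 4 libraries, and the call of CDC20.2 was lost without eS6A-Δ6SA 2 (adjusted p = 0.0576). With spike-in scaling 11 members were called. STM, a marker of the shoot meristem where such divisions take place, stood at 29.6, 32.1 and 21.6 in eS6A-Δ6SA, against 12.3, 19.4 and 18 in eS6A-HA, and did not pass (0.72, adjusted p = 0.125). CLV3 and WUS, the other meristem markers, are not listed. The part of meristem tissue in the result was not tested.

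Genes of the DNA damage response rose beside them. SOG1, a transcription factor of plants with the place that p53 has in animals, turns on such genes after strand breaks. Of 14 listed genes 9 were tested, of which 4 rose (44.4%, against 1.23% of all genes), none fell and 5 did not pass. The median log2 fold change was 0.36. GMI1, induced by gamma rays and mitomycin C, had 60.2, 68.7 and 78.3 in eS6A-Δ6SA, against 16.5, 19.4 and 21.3 in eS6A-HA (1.80, SE 0.16, adjusted p = 1.38e-09), with WT at 23.7 ± 2.68 and rps6a and rps6b higher than both, at 194 ± 5.74 and 153. It overlaps AT5G03735 on the other strand. NAC044, a transcription factor that stops the cycle before mitosis, had 16.9, 28.6 and 12.4 in eS6A-Δ6SA, against 2.06, 2.43 and 4.49 in eS6A-HA (2.31, SE 0.40, adjusted p = 0.000461). In both genes the groups lay well apart.

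CYCB1;1, a cyclin that accumulates in cells held before mitosis, had 27.4, 29.8 and 39.2 in eS6A-Δ6SA, against 10.3, 15.8 and 18 in eS6A-HA (1.10, SE 0.25, adjusted p = 0.00871). PARP2, a poly(ADP-ribose) polymerase of break repair, had 30.6, 47 and 41.2 in eS6A-Δ6SA, against 18.5, 24.3 and 23.6 in eS6A-HA (0.80, SE 0.21, adjusted p = 0.0229). In neither did the groups overlap. CYCB1;1 was lost without eS6A-Δ6SA 3 or eS6A-HA 1 (adjusted p up to 0.0901), and PARP2 when any library other than eS6A-Δ6SA 1 and eS6A-HA 2 was left out (up to 0.15) or by DESeq2, which left 2 calls in the list without eS6A-Δ6SA 3 or without eS6A-HA 1. SOG1 and BRCA1 did not pass.

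**Figure D4:**
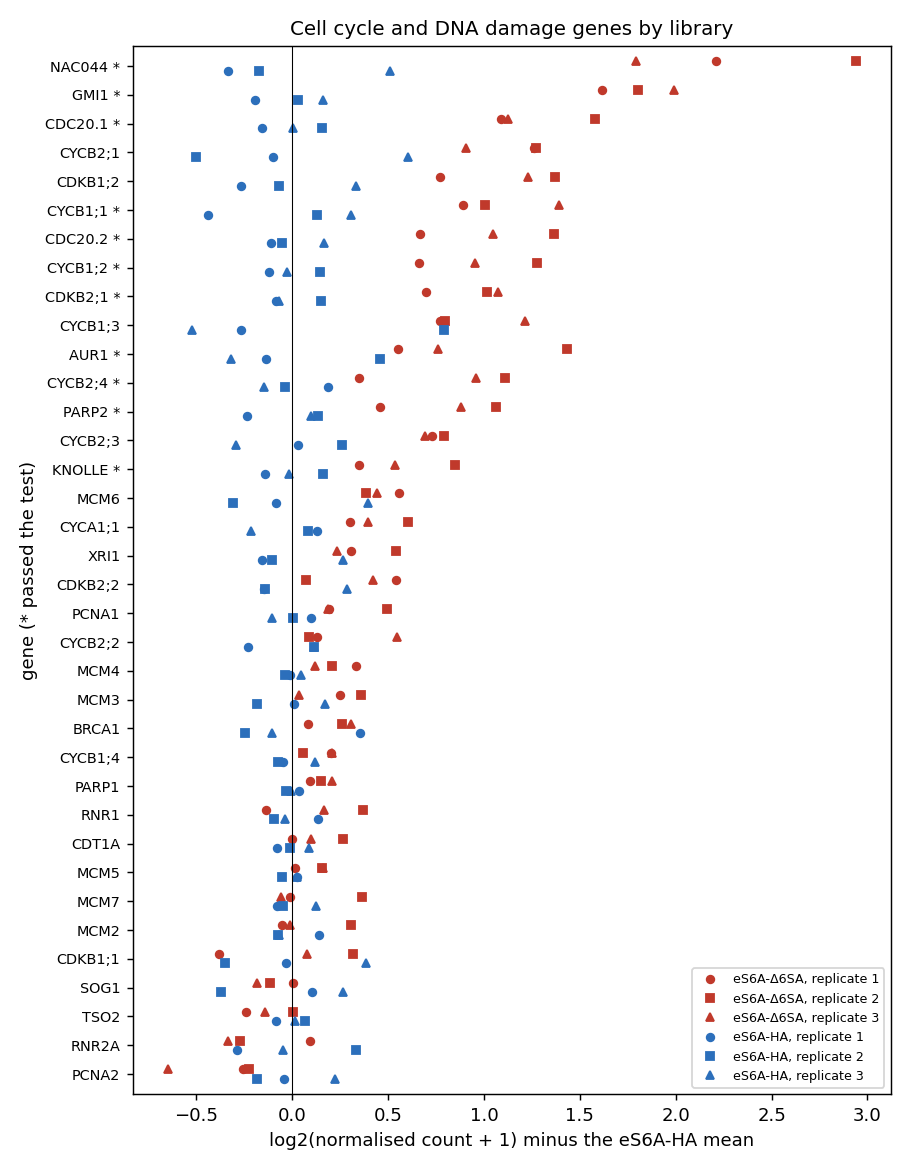
Each tested gene of the cell cycle and DNA damage lists in the 3 eS6A-Δ6SA (red) and the 3 eS6A-HA (blue) libraries, as log2(normalised count + 1) minus the eS6A-HA mean of the gene, with a star on genes that passed. The red points of the starred genes lie right of the blue ones.

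Promoter letters of these groups are given as a description. The core of the MSA element, AACGG, through which MYB factors act on mitotic genes, was found in 10 of 27 cell cycle windows, 3 of the 7 called ones, against 22.4% of all windows. The SOG1 motif CTTNNNNNNNAAG was found in 2 of 9 DNA damage windows, NAC044 and PARP2, both called, against 8.39% of all. The called match with the smallest adjusted p is printed for each, matches in capitals: CYCB1;2, TAIR10.1 chr5:1861704-1861953, minus strand, with 4 matches in either orientation, and NAC044, chr3:228825-229074, plus strand, with 1 match 65 bases before the start.
CYCB1;2: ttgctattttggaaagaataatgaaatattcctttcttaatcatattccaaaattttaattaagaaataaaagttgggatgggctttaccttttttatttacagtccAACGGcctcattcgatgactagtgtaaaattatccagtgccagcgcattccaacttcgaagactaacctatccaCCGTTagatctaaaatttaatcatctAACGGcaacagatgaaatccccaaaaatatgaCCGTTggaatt
NAC044: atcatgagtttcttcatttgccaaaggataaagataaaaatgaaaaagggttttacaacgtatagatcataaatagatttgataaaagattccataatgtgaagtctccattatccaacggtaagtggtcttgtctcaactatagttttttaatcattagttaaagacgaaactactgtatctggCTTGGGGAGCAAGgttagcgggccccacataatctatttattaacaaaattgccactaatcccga

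The largest rises were in loci that were almost silent in eS6A-HA. AT3G29633, annotated as an uncharacterized protein, had 96, 89.4 and 100 counts in eS6A-Δ6SA, against 1.03, 0 and 0 in eS6A-HA, which is 266 reads against 1, a ratio of 256 with a 95% counting interval of 45.6 to 10151. Its means in rps6a (1.24), rps6b (1.66) and WT (0.395) were as low as in eS6A-HA, so of the 5 genotypes eS6A-Δ6SA alone had more than a few reads there. AT3G01345, also uncharacterized, had 23.2, 28.6 and 26.8 in eS6A-Δ6SA, against 1.03, 0 and 0 in eS6A-HA, which is 73 reads against 1, a ratio of 70.3 (12.2 to 2813). Unlike AT3G29633 it was high in both single mutants, at 62.8 ± 5.25 in rps6a and 62.6 in rps6b, and near 0 in WT (0.79). Their adjusted p-values were 4.6e-09 and 1.68e-09.

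Among 153 pseudogenes tested of 429 listed, 6 rose (3.92%, against 1.23% of all genes) and 1 fell (0.654%, against 1.4%). The other 146 did not pass, and the median was 0.06. AT5G35935 stood at 51.7, 69.9 and 63.9 in eS6A-Δ6SA, against 2.06, 2.43 and 3.37 in eS6A-HA (4.12, SE 0.29, adjusted p = 1.11e-11), with WT at 19.9 ± 7.92. AT5G28335 stood at 86.5, 95.1 and 85.5 in eS6A-Δ6SA, against 3.09, 9.71 and 4.49 in eS6A-HA (3.85, SE 0.32, adjusted p = 5.26e-10), with no read in any WT library. AT3G42806 had 224, 218 and 274 in eS6A-Δ6SA, against 108, 106 and 92.1 in eS6A-HA (1.21, SE 0.12, adjusted p = 6.5e-09), and AT1G20390 had 151, 195 and 207 in eS6A-Δ6SA, against 111, 94.7 and 97.7 in eS6A-HA (0.85, SE 0.14, adjusted p = 0.000458). The groups overlapped in none of these, and none of the calls was lost with a library left out. Reads of pseudogenes can be shared with near-identical copies elsewhere.

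Other large rises were in genes with no list in common. NUC2, annotated as a second nucleolin-like protein of the nucleolus, had 16.9, 21.8 and 20.6 counts in eS6A-Δ6SA, against 3.09, 3.64 and 1.12 in eS6A-HA (2.59, SE 0.34, adjusted p = 4.26e-06), with 61.5 ± 9.88 in rps6a, 37.6 in rps6b and 4.54 ± 2.74 in WT. AT3G02640, an uncharacterized protein, stood at 104, 133 and 122 in eS6A-Δ6SA, against 45.3, 57 and 36 in eS6A-HA (1.38), and PRXCA, a peroxidase, at 103, 82.5 and 91.7 in eS6A-Δ6SA, against 40.1, 34 and 41.6 in eS6A-HA (1.24), each with adjusted p = 1.11e-06. DR4, a drought-repressed gene, had 315, 196 and 269 in eS6A-Δ6SA, against 124, 117 and 102 in eS6A-HA (1.15, adjusted p = 5.85e-05). AT3G02120, a hydroxyproline-rich glycoprotein, had 47.5, 57.3 and 55.7 in eS6A-Δ6SA, against 22.6, 21.8 and 25.8 in eS6A-HA (1.16, adjusted p = 0.000202). All of these groups stood apart and were called with any library left out. FZR3, an activator of the anaphase-promoting complex whose gene overlaps another on the opposite strand, had 41.2, 57.3 and 57.7 in eS6A-Δ6SA, against 11.3, 35.2 and 27 in eS6A-HA (1.18, adjusted p = 0.0385), a call lost when any library other than eS6A-Δ6SA 1 and eS6A-HA 2 was left out (up to 0.152).

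The seed storage gene CRU3 had 278, 167 and 255 counts in eS6A-Δ6SA, against 45.3, 65.5 and 30.3 in eS6A-HA (2.32, SE 0.51, adjusted p = 0.0398). The groups were far apart, yet the call was lost with any single library left out, with adjusted p between 0.0609 and 0.137. It was also lost in a limma fit with a block for replicate number (adjusted p = 0.0606). The rps6a libraries spread from 98 to 220. CRA1 had 505, 235 and 399 in eS6A-Δ6SA, against 141, 92.2 and 112 in eS6A-HA, and OLEO1 42.2, 19.5 and 40.2 in eS6A-Δ6SA, against 15.4, 9.71 and 3.37 in eS6A-HA, with adjusted p of 0.0547 and 0.0888. SESA1 had 4.22, 3.44 and 0 in eS6A-Δ6SA, against 0, 0 and 3.37 in eS6A-HA. In all 3 tested seed genes every eS6A-Δ6SA library was above every eS6A-HA library, while 1 passed in limma. CRA1 also passed in edgeR (adjusted p = 0.0453), in DESeq2 (0.000734), with spike-in scaling (0.0276) and with no trend or robust moderation (0.0392), and OLEO1 with spike-in scaling (0.0311).

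Clock genes known to peak at dawn fell in eS6A-Δ6SA, LHY, CCA1 and RVE1 under the deposited scaling and, of these, LHY alone with spike-in scaling (adjusted p = 0.035, 0.757 and 0.333). LHY, a MYB factor at the core of the clock, had 857, 848 and 876 in eS6A-Δ6SA, against 1301, 1319 and 1421 in eS6A-HA (-0.65, SE 0.08, adjusted p = 9.83e-07). WT stood at 1512 ± 86.5, rps6a at 716 ± 28.2 and rps6b at 859. Its partner CCA1 had 1016, 972 and 922 in eS6A-Δ6SA, against 1075, 1263 and 1216 in eS6A-HA (-0.29, SE 0.08, adjusted p = 0.0372), and the related RVE1, which ties the clock to auxin, 458, 454 and 422 in eS6A-Δ6SA, against 571, 659 and 583 in eS6A-HA (-0.44, SE 0.10, adjusted p = 0.00971). No group overlapped here. GI, a clock protein that peaks late in the day, was the only member of the list that rose, with 128, 113 and 120 in eS6A-Δ6SA, against 83.3, 74 and 86.5 in eS6A-HA (0.56, SE 0.12, adjusted p = 0.00639). Of 25 listed genes 18 were tested, 3 fell (16.7%, against 1.4% of all genes) and 1 rose (5.56%, against 1.23%). The other 14 did not pass, and the median was -0.11, which was 0.10 with spike-in scaling. LHY was called with any library left out. GI was lost without eS6A-HA 2 (adjusted p = 0.0506), RVE1 without eS6A-Δ6SA 3 or eS6A-HA 2 (up to 0.095) and CCA1 when any library other than eS6A-Δ6SA 1 and eS6A-HA 1 was left out (up to 0.202), so the list had 1 call without eS6A-HA 2 and 2 without eS6A-Δ6SA 3. RVE1 overlaps AT5G17305. The labels do not give the hour of harvest of each library, and its part in these levels was not tested. The evening element AAAATATCT was in 3 of 18 windows, none of a called gene, against 2.39% of all.

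Cytosolic chaperones fell in eS6A-Δ6SA, 4 genes under the deposited scaling and 1 with spike-in scaling. Of 30 listed heat shock and chaperone genes 17 were tested. Of these 4 fell (23.5%, against 1.4% of all genes), none rose and 13 did not pass, with 16 of 17 negative and a median of -0.25. The 4 were HSP70, AT3G09440, HSC70-1 and HSP90.2, members of the families that fold proteins in the cytosol. HSP70 had 213, 158 and 172 counts in eS6A-Δ6SA, against 299, 359 and 320 in eS6A-HA (-0.85, SE 0.12, adjusted p = 2.95e-05), with WT at 460 ± 72.6. HSC70-1, the most abundant of the 4, had 7400, 7452 and 7064 in eS6A-Δ6SA, against 9567, 9610 and 9616 in eS6A-HA (-0.39, SE 0.06, adjusted p = 0.00012). Both gaps were wide against the spread within each group. AT3G09440 stood at 1286, 1279 and 1294 in eS6A-Δ6SA, against 1671, 1776 and 1927 in eS6A-HA (-0.48), and HSP90.2 at 1034, 1150 and 1205 in eS6A-Δ6SA, against 1453, 1469 and 1454 in eS6A-HA (-0.37). All 4 were called with any library left out. These families hold near-identical copies that may share reads, and AT3G09440 overlaps AT3G09430. The letters GAANNTTC, the core of a heat shock element, were in none of the 17 windows, against 8.94% of all.

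**Figure D5:**
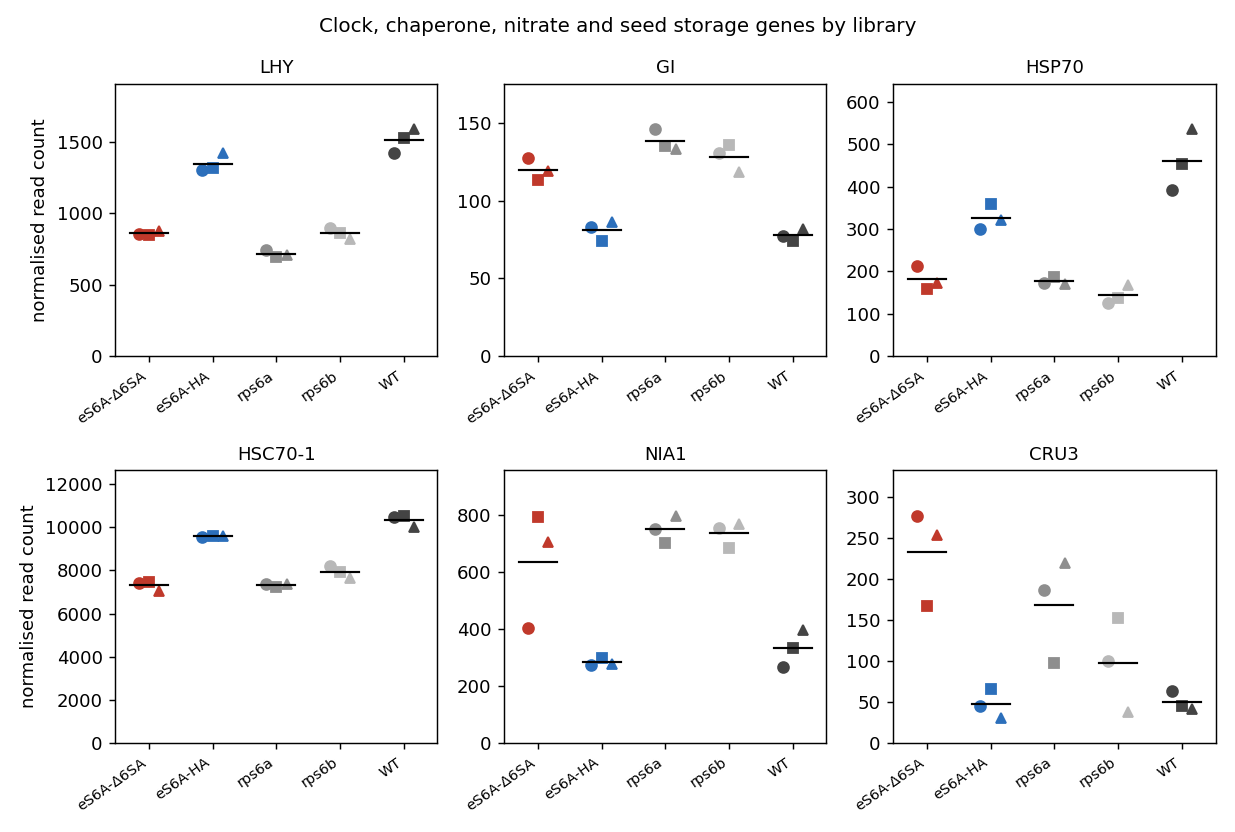
Normalised read counts of the clock genes LHY and GI, the chaperones HSP70 and HSC70-1, the nitrate reductase NIA1 and the seed storage gene CRU3 in each library of the 5 genotypes, axes from 0. Points are libraries (circle, square and triangle for replicates 1 to 3) and lines are means: LHY lies between 848 and 876 in eS6A-Δ6SA and between 1301 and 1421 in eS6A-HA, and NIA1 spreads from 401 to 793 in eS6A-Δ6SA.

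Nitrate assimilation had 3 genes that rose in eS6A-Δ6SA. Of 10 listed genes 9 were tested, 3 rose (33.3%, against 1.23% of all genes), none fell and 6 did not pass. The median was 0.34. NIA1, a nitrate reductase, had 401, 793 and 706 in eS6A-Δ6SA, against 272, 299 and 278 in eS6A-HA (1.10, SE 0.22, adjusted p = 0.0203). NIR1, which reduces the nitrite it makes, had 851, 978 and 857 in eS6A-Δ6SA, against 623, 759 and 751 in eS6A-HA (0.34, SE 0.09, adjusted p = 0.0232), and UPM1, which makes the sirohaem of that enzyme, 156, 221 and 177 in eS6A-Δ6SA, against 113, 124 and 140 in eS6A-HA (0.54, SE 0.12, adjusted p = 0.0076). In each gene eS6A-Δ6SA 1 was nearest to the eS6A-HA libraries without overlapping them. None of the 3 was called without eS6A-HA 1 and 1 was without eS6A-Δ6SA 2. NIA1 was also lost without eS6A-Δ6SA 3, eS6A-HA 2 or eS6A-HA 3 (up to 0.0782), and NIR1 and UPM1 without eS6A-Δ6SA 2 (up to 0.195 and 0.106). Limma on the 6 libraries alone did not call NIA1. With no trend or robust moderation NIR1 and UPM1 were not called (adjusted p = 0.155 and 0.08). UPM1 overlaps a gene on the other strand.

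Sulfur genes were split: of 14 tested, 1 rose (7.14%, against 1.23% of all genes) and 1 fell (7.14%, against 1.4%). The other 12 did not pass, and the median was 0.04. SDI1, induced when sulfur is short, had 29.6, 27.5 and 39.2 in eS6A-Δ6SA, against 23.7, 13.4 and 12.4 in eS6A-HA (0.96, adjusted p = 0.0286), a call lost without eS6A-Δ6SA 3, eS6A-HA 2 or eS6A-HA 3 (up to 0.164), with no trend or robust moderation (0.127), and by edgeR (0.158) and DESeq2 (0.122). APR2, which reduces activated sulfate, had 465, 390 and 396 in eS6A-Δ6SA, against 548, 596 and 609 in eS6A-HA (-0.49, adjusted p = 0.00394), called with any library left out but not with spike-in scaling (-0.28, adjusted p = 0.246) or with no trend or robust moderation (0.0944), and overlaps a gene on the other strand.

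Genes of defence metabolites fell in small numbers. In flavonoid synthesis 17 of 21 listed genes were tested. Of these 3 fell (17.6%, against 1.4% of all genes), none rose and 14 did not pass, with a median of -0.34. CHS, chalcone synthase, the first enzyme of the pathway, had 574, 537 and 580 in eS6A-Δ6SA, against 926, 727 and 789 in eS6A-HA (-0.52, SE 0.11, adjusted p = 0.0081), and overlaps AT5G13940. CHIL, a helper of that enzyme, had 229, 189 and 217 in eS6A-Δ6SA, against 320, 295 and 295 in eS6A-HA (-0.52, SE 0.09, adjusted p = 0.000927), and FLS1, flavonol synthase, 108, 92.8 and 97.9 in eS6A-Δ6SA, against 149, 124 and 167 in eS6A-HA (-0.55, SE 0.13, adjusted p = 0.0117). The groups stayed apart in all of these, but FLS1 was lost when any library other than eS6A-Δ6SA 1 and eS6A-HA 2 was left out (up to 0.114) and CHS without eS6A-HA 1 (0.0571). The list had 1 call without eS6A-HA 1, 5 without eS6A-Δ6SA 1 and none with spike-in scaling. It had 1 with no trend or robust moderation in limma, where CHS (adjusted p = 0.104) and FLS1 (0.0799) did not pass.

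In glucosinolate synthesis 31 of 34 listed genes were tested. Of these 2 fell (6.45%, against 1.4% of all genes), none rose and 29 did not pass, with a median of -0.07. CYP79F1, which starts the aliphatic branch from methionine derivatives, had 1165, 1161 and 1162 in eS6A-Δ6SA, against 1822, 1262 and 1531 in eS6A-HA (-0.39, adjusted p = 0.0201), and CYP79B3, of the indole branch, 45.4, 47 and 66 in eS6A-Δ6SA, against 101, 69.2 and 85.4 in eS6A-HA (-0.68, adjusted p = 0.0372), which DESeq2 did not call. Of 18 myrosinase and jacalin genes, which act on glucosinolates after wounding, 2 fell (11.1%, against 1.4% of all genes). The other 16 did not pass, and the median was 0.02. TGG2, a myrosinase, had 2912, 2895 and 3043 in eS6A-Δ6SA, against 4111, 3648 and 3804 in eS6A-HA (-0.38, adjusted p = 0.0312). JAL23, a jacalin-related lectin, had 27.4, 20.6 and 15.5 in eS6A-Δ6SA, against 80.2, 32.8 and 44.9 in eS6A-HA (-1.21, adjusted p = 0.0177). None of these groups overlapped. TGG2 was lost with any library left out (0.0509 to 0.145), and the other three without 4 of 6 libraries each, eS6A-Δ6SA 2, eS6A-HA 1 and eS6A-HA 3 among them and eS6A-Δ6SA 3 or, for CYP79B3, eS6A-Δ6SA 1 (up to 0.19 or 0.191). Of 21 jasmonate genes tested 1 fell (4.76%, against 1.4% of all genes) and 20 did not pass (median -0.13). The gene was JAZ3, a repressor of jasmonate responses, with 86.5, 103 and 91.7 in eS6A-Δ6SA, against 146, 142 and 139 in eS6A-HA (-0.60, adjusted p = 0.00973). Its call was lost without eS6A-HA 1 (0.0506).

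Of 268 tested genes described as ribosomal proteins, 2 rose (0.746%, against 1.23% of all genes), none fell and 266 did not pass, with a median of 0.09. In sign 192 (71.6%) were positive, against 8138 of the 16335 genes tested. In 189 of the 268 eS6A-Δ6SA 1 was the lowest of its group and in 192 eS6A-Δ6SA 2 the highest. The called genes were RPS28, at 165, 244 and 198 in eS6A-Δ6SA and 146, 148 and 157 in eS6A-HA (0.41, adjusted p = 0.0388), and EMB3126, annotated as a ribosomal L1p/L10e family protein, at 1450, 1800 and 1609 in eS6A-Δ6SA, against 1341, 1263 and 1295 in eS6A-HA (0.31, adjusted p = 0.048). The groups were apart but close, and both were lost when any library other than eS6A-Δ6SA 1 was left out (up to 0.304 and 0.266), and by DESeq2. Without eS6A-Δ6SA 1 the count was 18 and with spike-in scaling 38. Both genes overlap a neighbour, RPS28 on the same strand. Of 58 initiation factors 1 rose (1.72%, against 1.23% of all genes). It was AT2G36885, with 53.8, 44.7 and 48.4 in eS6A-Δ6SA, against 30.9, 23.1 and 31.5 in eS6A-HA (0.77, adjusted p = 0.0444). The call was lost with any library left out (0.0718 to 0.212) and by edgeR and DESeq2. The median of these factors was -0.00.

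Of 26 ribosome biogenesis genes, a process in which eS6 is known to take part, NUC2 was the only call (3.85%, against 1.23% of all genes higher). The other 25 did not pass and the median was -0.06. None of 15 TOR and S6 kinase genes passed in limma, edgeR or DESeq2, with a median of -0.07 in limma, and 1 had an unadjusted p under 0.05. S6K1, the kinase of eS6, had 821, 799 and 808 in eS6A-Δ6SA and 786, 868 and 894 in eS6A-HA, and TOR had 520, 549 and 502 in eS6A-Δ6SA, against 554, 516 and 567 in eS6A-HA, so these groups overlapped. Both are given for their roles.

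Transcripts of the plastid genome were lower in eS6A-Δ6SA relative to the median gene, a direction not held with spike-in scaling, where the median was -0.00 and 1 gene passed, higher. Of 119 listed genes 103 were tested, 28 fell (27.2%), none rose and 75 did not pass, with a median of -0.22 and 91 negative. Nuclear chromosomes had 0.985% to 1.63% of their genes lower. The genes are given by identifier, since the reference pairs them with no names. ATCG00150 had 23934, 22975 and 22499 counts in eS6A-Δ6SA, against 31559, 29276 and 29255 in eS6A-HA (-0.38, SE 0.06, adjusted p = 0.000318), and ATCG00580 had 37670, 36724 and 34297 in eS6A-Δ6SA, against 51282, 46700 and 46120 in eS6A-HA (-0.41, SE 0.07, adjusted p = 0.000414). ATCG00500 had 5590, 4957 and 4681 in eS6A-Δ6SA, against 6840, 6778 and 6566 in eS6A-HA, and ATCG00050 had 1089, 1146 and 1032 in eS6A-Δ6SA, against 1444, 1484 and 1390 in eS6A-HA. All 4 stood apart between the groups and were called with any library left out.

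Plastid reads made up 58.9%, 57.5% and 56.7% of gene reads in eS6A-Δ6SA, against 62.3%, 61.3% and 60.3% in eS6A-HA. The mean difference was -3.59 percentage points, from 57.7% ± 1.11 and 61.3% ± 0.991 (SD, n = 3 each), and WT held 59.2% ± 0.49. The groups did not overlap, and an exact two-sided permutation test gave p = 0.1, the smallest that 3 against 3 allows (0.3 adjusted over 3 shares). All of these transcripts are made from the plastid genome, so the genes are not separate witnesses. The count of lower genes was 12 without eS6A-HA 1, 17 without eS6A-Δ6SA 3 and 18 without eS6A-Δ6SA 2, and 2 with no trend or robust moderation of the variance. Of 20 light harvesting genes of the nucleus none passed in limma, edgeR or DESeq2, with a median of 0.01 and 1 gene at an unadjusted p under 0.05 in limma, and 2 passed with spike-in scaling. LHCB4.1 had the smallest p of these, at 12874, 14692 and 15232 in eS6A-Δ6SA and 12180, 11389 and 11217 in eS6A-HA (adjusted p = 0.12).

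Mitochondrial transcripts as a whole took 0.411% ± 0.0162 of gene reads in eS6A-Δ6SA and 0.414% ± 0.0186 in eS6A-HA (SD, n = 3 each; exact two-sided permutation p = 0.5). Of 53 tested of 93, 1 fell (1.89%, against 1.4% of all genes) and 52 did not pass, with a median of 0.02. That gene, ATMG01390, had the largest fall among genes with at least 50 counts in either group: 548, 883 and 969 in eS6A-Δ6SA, against 2842, 2211 and 2603 in eS6A-HA (-1.71, SE 0.32, adjusted p = 0.019). The rps6b mean was higher than all of these, at 6593, and those of rps6a and WT were 916 ± 149 and 786 ± 93. The call was lost without eS6A-HA 1 or eS6A-HA 3 (up to 0.0738). The reference pairs ATMG01390 with no name, and the part of ribosomal RNA depletion in its level was not tested.

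The remaining large falls were in genes of no fixed list. AT4G22490, of the lipid transfer protein family, had 185, 184 and 145 in eS6A-Δ6SA, against 563, 363 and 500 in eS6A-HA (-1.45, SE 0.23, adjusted p = 0.00448). GRP23, a glycine-rich protein, had 23.2, 25.2 and 25.8 in eS6A-Δ6SA, against 67.9, 66.8 and 57.3 in eS6A-HA (-1.33, SE 0.22, adjusted p = 0.000183). AT5G15780, a pollen Ole e allergen and extensin family protein, had 80.2, 82.5 and 84.5 in eS6A-Δ6SA, against 181, 149 and 178 in eS6A-HA (-1.02, adjusted p = 3.17e-05). These groups lay far apart and were called with any library left out. The same held for AT1G64500, a glutaredoxin family protein, with 81.3, 80.2 and 72.1 in eS6A-Δ6SA, against 138, 138 and 202 in eS6A-HA (adjusted p = 0.000156). AT3G24480, a leucine-rich repeat protein, had 58.1, 53.8 and 51.5 in eS6A-Δ6SA, against 138, 121 and 113 in eS6A-HA (-1.17, adjusted p = 0.0117), lost without eS6A-Δ6SA 2, eS6A-Δ6SA 3, eS6A-HA 1 or eS6A-HA 2 (up to 0.0719).

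Single genes passed in a few more lists: 7.14% of cold and 5.56% of carbon starvation genes fell, against 1.4% of all genes. KIN2, a cold-responsive gene with a near-identical neighbour, KIN1, had 194, 146 and 182 in eS6A-Δ6SA, against 338, 283 and 271 in eS6A-HA (-0.77, SE 0.14, adjusted p = 0.00119), the only call among 14 cold and abscisic acid genes (median -0.21). TPS8, of the trehalose phosphate synthase family, had 852, 766 and 780 in eS6A-Δ6SA, against 1090, 1028 and 1050 in eS6A-HA (-0.40, adjusted p = 0.0326), the only call among 18 carbon starvation genes (median -0.22) and lost when any library other than eS6A-Δ6SA 1 was left out (up to 0.133). KIN2 stayed called with any library left out.

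In other lists limma called no member, nor did edgeR or DESeq2. Leaf senescence had 14 genes tested and a median of 0.03, salicylate and immune response 9 and 0.03, mitochondrial stress 8 and -0.10, and iron and copper homeostasis 17 and 0.08. Leaf polarity had 13 and 0.13, and flowering time 7 and 0.11. At an unadjusted p under 0.05 there were 1 senescence gene, 1 immune gene, 1 mitochondrial stress gene and 3 iron and copper genes, and none in the polarity and flowering lists. With spike-in scaling 3 iron and copper genes were called. With so few libraries these counts do not show that the lists did not differ.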

How the data were processed

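The authors deposited 1 table of 15 columns, whose signal values are read counts per gene divided by 1 size factor per library; STAR 2.7.6a, featureCounts 2.0.0, DESeq2 1.26.0 and the build TAIR10 are named, with no settings, per the submitters' processing notes. Strand use, annotation and filters are not given in the sources used here. In each column 100% of values were whole multiples of the value of 1 read (tolerance 0.01), so whole reads were recovered. The 77 spike-in rows were left out. Genes with a mean of at least 10 were tested with limma 3.58.1 (R 4.3.3), with trend and robust moderation, on log2(value + 1), which understates changes of low genes, all 15 libraries in 1 fit, with Benjamini-Hochberg adjustment. As alternatives the recovered reads were tested with edgeR 4.0.16 (quasi-likelihood) and DESeq2 1.42.0, and scaling, filters, pseudocount and libraries were varied. Each tool was tested on simulated data. Read shares were compared with exact permutation tests.

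The genes, lists and tests were chosen with earlier results of these data known. Named genes are the eS6 genes, the 12 largest rises and falls of called genes whose libraries did not overlap and whose higher genotype averaged 50 or more, the 6 smallest adjusted p-values, and up to 4 called members of each list with the smallest adjusted p; others are marked in the text. Of the identifiers, 21565 of 21777 matched TAIR10.1, from whose genome the sequences were read. The intervals on ratios of reads are exact, at 95%, and cover counting error only. The sequence of 1 upstream window is not reported here.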

Additional observations from a re-analysis of the deposited data

How the results depend on the processing

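Against 429 genes, the count was 378 with edgeR, 314 with DESeq2, 524 with the 6 libraries alone, 363 with a mean of at least 50 and 418 to 443 with other pseudocounts, no filter, or TMM, upper quartile or nuclear read scaling. It was 183 (111 higher, 72 lower) with no trend or robust moderation. Scaled to the spike-ins it was 832, 793 of them higher (95.3%, against 46.9%), and 1 called gene changed direction. With single libraries left out it ranged from 241 to 570. Of 67 named genes, 36 were called with any library left out and 26 under every setting, and none reversed; 3 were lost by edgeR, 7 by DESeq2, 9 with the 6 libraries alone, 22 with spike-in scaling and 25 with no trend or robust moderation. The mitochondrial share difference of -0.00358 percentage points ranged from -0.0143 to 0.00575 with single libraries left out and was 0.0146 with ATMG01390 left out. The plastid share difference ranged from -4.19 to -3.10.

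Same-numbered libraries of the genotypes deviated with correlations of 0.023, 0.011 and -0.021. The labels do not say whether a number is shared between genotypes, and such correlations cannot exclude it. A fit with the replicate block called 461 genes.

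Limits: 3 libraries per genotype, 1 comparison of genotypes that also differ in RPS6A level, no stated strand, and few reads on the silent loci limit the precision.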

Other observations

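A further group of division genes and a group of starch genes were found by looking through the called genes, so their lists were chosen after the values were seen and carry no test. Of 28 genes described as kinesins, motor proteins of microtubules, 27 were tested. In eS6A-Δ6SA 9 rose (33.3%, against 1.23% of all genes), none fell and 18 did not pass, with a median log2 fold change of 0.22. POK1, which marks the plane of cell division, had 83.4, 99.7 and 98.9 normalised counts in eS6A-Δ6SA, against 48.3, 52.2 and 51.7 in eS6A-HA (limma, 0.87, adjusted p = 0.000173). Its relative POK2 had 164, 230 and 211 in eS6A-Δ6SA, against 137, 121 and 121 in eS6A-HA (0.66, adjusted p = 0.000674), and KINESIN-12B, a motor of the cytokinetic phragmoplast, had 107, 157 and 124 in eS6A-Δ6SA, against 78.2, 43.7 and 60.7 in eS6A-HA (1.09, adjusted p = 0.000299). In all of these the groups stood apart, and they are mitotic genes like those of the cell cycle list. The count was 6 to 9 with single libraries left out.

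Of 17 genes of starch breakdown, 5 rose (29.4%, against 1.23% of all genes) and 1 fell (5.88%, against 1.4%). The other 11 did not pass, and the median was 0.18. AT4G24450, annotated as a phosphoglucan, water dikinase, had 46.4 to 83.4 in the 3 eS6A-Δ6SA libraries and at most 36 in those of eS6A-HA (1.05, adjusted p = 0.00144). DPE2, which metabolises maltose in the cytosol, had 654, 564 and 613 in eS6A-Δ6SA, against 478, 448 and 463 in eS6A-HA (0.40, adjusted p = 0.00317). The groups did not overlap. The phosphorylases PHS1 and PHS2 and the amylase AMY3 also rose, and the beta-amylase CT-BMY fell, with 605, 710 and 608 in eS6A-Δ6SA, against 817, 952 and 938 in eS6A-HA (-0.49, adjusted p = 0.00157), a call lost with spike-in scaling (-0.28, adjusted p = 0.216) and with no trend or robust moderation (0.0732). PHS1 and CT-BMY overlap genes on the opposite strand. PHS1 was lost without eS6A-HA 3, PHS2 without eS6A-Δ6SA 1 or eS6A-HA 2, and AMY3 without eS6A-Δ6SA 1, eS6A-Δ6SA 3, eS6A-HA 2 or eS6A-HA 3, so the list had 4 to 7 calls, and 1 with no trend or robust moderation.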
